A study of Mus with 4 samples.

Results

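The 6 genes described here encode procoagulant and anticoagulant proteins of endothelial cells, and were taken by their Ensembl identifiers from the 54532 genes of the deposited count table. The anticoagulant genes were Tfpi (ENSMUSG00000027082), Thbd (ENSMUSG00000074743) and Procr (ENSMUSG00000027611), and the procoagulant genes were F8 (ENSMUSG00000031196), Vwf (ENSMUSG00000001930) and F3 (ENSMUSG00000028128). All 6 had a row in the table, and all 6 passed the filter on low counts that left 15510 tested genes. RNA was sequenced from liver sinusoidal endothelial cells (LSECs), the fenestrated lining of the liver's blood channels, of mice. Of the libraries, 2 came from Pofut1 knockout mice given carbon tetrachloride (P1KO) and 2 from control mice given the same agent (CTL). Carbon tetrachloride (CCl4) is a toxin used to injure the liver and to induce fibrosis, so both groups carry this injury and no uninjured liver is among them. The series' title places the knockout in the endothelium. POFUT1 is a sugar transferase of the endoplasmic reticulum that puts fucose on EGF-like domains of secreted and membrane proteins, Notch receptors being the best known. The sources used here give no Cre line, age or sex of the mice, CCl4 schedule or pooling of animals. They also do not state whether each library stands for its own mouse. The p-values below therefore set group differences against the spread of these libraries only, and that spread may be technical.

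Blood clotting starts when tissue factor, the product of F3, meets factor VII of the plasma, and it ends in thrombin, which cuts fibrinogen to fibrin. Endothelium in contact with blood holds this reaction back. Tissue factor pathway inhibitor (Tfpi) blocks the tissue factor complex, thrombomodulin (Thbd) binds thrombin and turns it to the activation of protein C, and the endothelial protein C receptor (Procr) presents protein C to that complex. Endothelial cells also supply clotting proteins, namely von Willebrand factor (Vwf), which tethers platelets and carries factor VIII in plasma, and factor VIII (F8), the cofactor of factor IX. In the liver, LSECs are a main source of factor VIII, whereas von Willebrand factor is known mainly from the endothelium of larger vessels and is used as a sign that sinusoidal cells have turned towards a capillary type.

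The libraries were of nearly equal depth, with totals between 17464769 and 17918834 counts, and carry the column names KO1, KO3, CTL1 and CTL2. They were unequally alike. The biological coefficient of variation, the spread beyond counting error, was 12.1% between the P1KO libraries and 3.22% between the CTL libraries, so a test over all 4 leans on a narrow CTL pair. The tissue and cell type labels say liver and LSECs, whereas the extraction protocol names heart ventricles. Markers of endothelium, hepatocytes, heart muscle and other cells could not be read, since no table at hand pairs their symbols with the deposited identifiers, so neither the cell type nor the loss of Pofut1 was checked. In such bulk samples fewer cells of a type and less RNA per cell cannot be told apart.

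In mm10, the build of the files, and by RefSeq's GRCm38.p6 gene models, 3 of the 6 genes lie on chromosome 2, all of them the anticoagulant ones. Tfpi spans chr2:84432855-84476775, Thbd spans chr2:148404471-148408188 and Procr spans chr2:155751125-155755478. Vwf spans chr6:125552948-125686679, F3 spans chr3:121723537-121735052 and F8 spans chrX:75170344-75382738. All 6 are protein-coding. RefSeq lists 11 transcripts of Tfpi, 5 of them curated, and 7 of F8, 3 of them curated, whereas Thbd and F3 have 1 each. A count per gene does not separate transcripts, and the transcript models behind the deposited counts are not given. The span of F8 also overlaps Fundc2 and the pseudogenes Gm6039 and Gm8522. The other 5 spans overlap no other gene of that table. The library kit named in the labels does not mark strand, so reads where F8 and these neighbours share bases cannot be told apart by strand.

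Between the genotypes, 3 of the 6 genes passed the test, with Tfpi and F8 higher and Thbd lower in P1KO, while Procr, Vwf and F3 did not pass (quasi-likelihood test of edgeR, p adjusted by Benjamini-Hochberg over all tested genes, threshold 0.05). Of all 15510 tested genes 19.5% passed, 9.68% as higher and 9.84% as lower in P1KO. Genes with many reads passed more often: among genes within 2-fold of the member's mean level, 49.7% passed around Tfpi, 55.9% around F8, 55.5% around Thbd and 47.9% around Vwf, against 21.0% around Procr and 10.5% around F3. A count of 3 in 6 is near the background of comparable genes. The anticoagulant genes did not move together, with 1 higher, 1 lower and 1 that did not pass. The procoagulant genes likewise had 1 higher and 2 that did not pass. The median log2 fold change was -0.03 over the 6 genes and -0.01 over all tested genes, and the median absolute log2 fold change was 0.44 and 0.22.

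**Figure D1:**
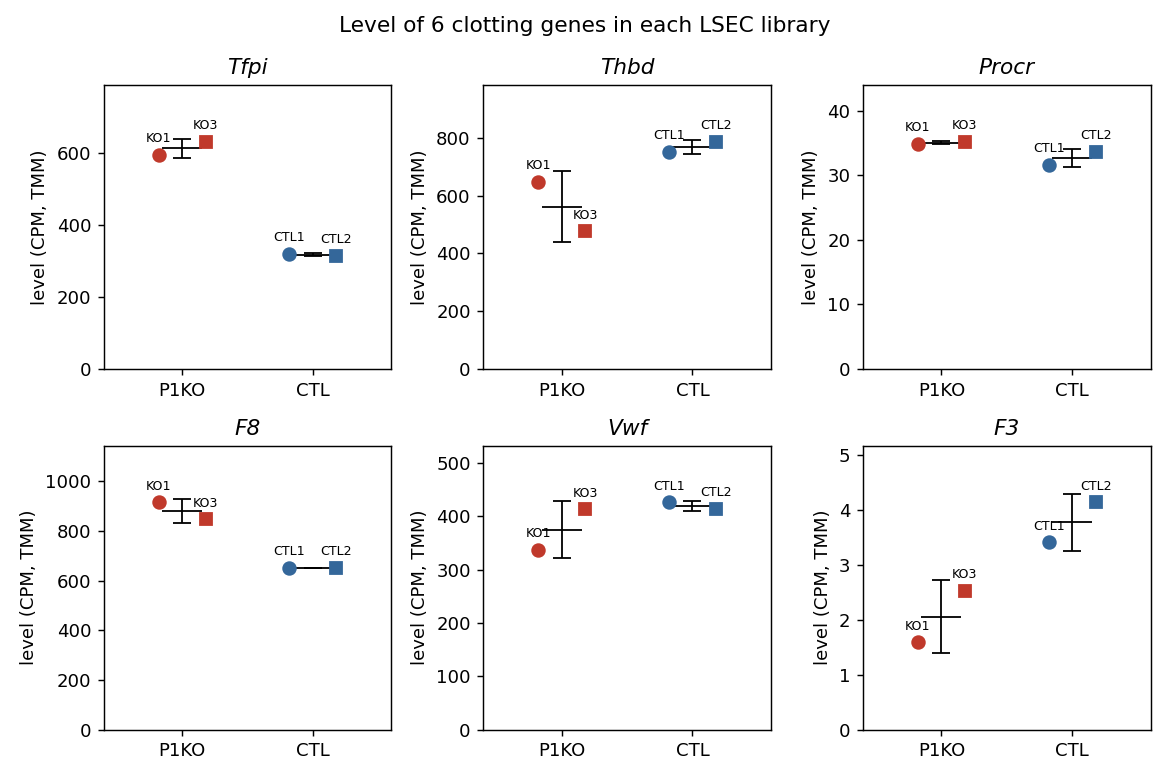
Level of each gene as CPM (read counts scaled to a common library size with TMM factors) in the 4 libraries, with each axis starting at 0. Points are libraries and bars are the mean and SD of 2 libraries. Tfpi stood at 595 and 633 CPM in P1KO and at 321 and 315 CPM in CTL, the widest separation of the 6 relative to its level.

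Tfpi, the inhibitor of the tissue factor complex, rose 1.93-fold in P1KO. It had 10478 reads in KO1 and 11259 in KO3, against 5634 in CTL1 and 5625 in CTL2. Its level was 614 ± 26.3 CPM in P1KO and 318 ± 4.20 CPM in CTL (SD, n = 2 each). Both P1KO libraries lay far above both CTL libraries, and the lower P1KO library exceeded the higher CTL library by 85.5%. In edgeR the log2 fold change was 0.95 ± 0.05 (SE) at an adjusted p of 0.000106, and the 95% interval ran from 1.77-fold to 2.11-fold. Within P1KO the ratio of KO3 to KO1 was 1.06, and counting error alone gives it a 95% interval of 1.03 to 1.09 (exact binomial). By size of rise, Tfpi ranked 368 of the 15510 tested genes. Among 688 genes within 2-fold of its mean level, 97.8% changed less in absolute size.

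The rise of Tfpi passed in every alternative tried, including each fit with a library left out. It held where few genes passed at all: the adjusted p was 0.0447 without CTL1, where 0.832% of the tested genes passed, and 0.0453 without CTL2, where 0.774% passed. With the CTL libraries summed into 1, where 0.98% passed, it was 0.0431 with a log2 fold change of 0.94. Leaving out KO3 gave a log2 fold change of 0.91 and leaving out KO1 gave 0.99, in fits that take their spread from the CTL pair alone and in which 33.6% and 34.8% of the tested genes passed. Of the 6 genes, Tfpi alone passed in these 3 fits that draw their spread from the P1KO pair.

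Thbd, the thrombin receptor that directs thrombin towards protein C, fell in P1KO to 0.731 of its CTL level. It had 11400 reads in KO1 and 8477 in KO3, against 13204 in CTL1 and 14042 in CTL2. Its level was 562 ± 121 CPM in P1KO and 769 ± 24.2 CPM in CTL (SD, n = 2 each). Both P1KO libraries were below both CTL libraries, with a gap of 13.9% between the nearest ones, and KO3 was well below KO1. This is a log2 fold change of -0.45 ± 0.12 (SE), at an adjusted p of 0.0422 in edgeR, and the 95% interval of the fold change ran from 0.597 to 0.894. The ratio of KO3 to KO1 was 0.735, with a 95% interval of 0.715 to 0.756, so the P1KO libraries differed from each other by about as much as the genotypes did, and by more than counting error. In CTL the ratio of CTL2 to CTL1 was 1.05, with an interval of 1.02 to 1.07. Without KO1 the log2 fold change was -0.69, and without KO3 it was -0.25. The call was lost without CTL1 (adjusted p of 0.261), without CTL2 (0.312), with CTL summed (0.287), with DESeq2 (0.180, where 14.5% of the tested genes passed) and with no filter on low counts (0.141, where 6.24% passed). The sign was negative in all of these.

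Procr, the receptor that brings protein C to thrombomodulin, did not pass. It had 613 reads in KO1 and 626 in KO3, against 555 in CTL1 and 601 in CTL2. Its level was 35.0 ± 0.239 CPM in P1KO and 32.6 ± 1.44 CPM in CTL (SD, n = 2 each). Every P1KO value was above every CTL value by a small margin of 3.51% between the nearest libraries. Its log2 fold change was 0.10 ± 0.08 (SE), at an adjusted p of 0.418 in edgeR. The 95% interval of the fold change, 0.943 to 1.22, leaves room for a small change in either direction, and leaves out both the size of the Tfpi rise and that of the Thbd fall. The interval for counting error alone, 0.989 to 1.16, also included 1. No alternative tried gave a call.

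F8, encoding factor VIII, rose 1.35-fold in P1KO. It had 16093 reads in KO1 and 15067 in KO3, against 11451 in CTL1 and 11647 in CTL2. Its level was 880 ± 48.0 CPM in P1KO and 652 ± 0.0513 CPM in CTL (SD, n = 2 each). Both P1KO libraries were above both CTL libraries, by 29.8% between the nearest ones. The CTL libraries differed by far less than counting error allows, since the interval for their ratio ran from 0.974 to 1.03, so the CTL SD understates the error of that mean. On the log2 scale the change was 0.43 ± 0.05 (SE) at an adjusted p of 0.00203 in edgeR, and the 95% interval ran from 1.24-fold to 1.47-fold. KO3 stood at 0.926 of KO1, with an interval of 0.905 to 0.947. Its size on the log2 scale was 0.43 both without CTL1 and without CTL2, but the adjusted p was then 0.126 in each. With CTL summed it was 0.125.

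Vwf, encoding the carrier of factor VIII in plasma, did not pass. It had 5931 reads in KO1 and 7353 in KO3, against 7478 in CTL1 and 7384 in CTL2. Its level was 375 ± 53.8 CPM in P1KO and 420 ± 8.82 CPM in CTL (SD, n = 2 each). KO1 was low, at 337 CPM, while KO3 lay at the level of CTL2. KO3 and CTL2 both stood at 413 CPM, and KO3 was lower by only 0.0788%. Scaled by library totals instead, at 415 CPM each, KO3 was the higher of the 2, so the groups overlapped. In edgeR the log2 fold change of Vwf was -0.16 ± 0.09 (SE) at an adjusted p of 0.256, and the 95% interval of the fold change ran from 0.771 to 1.04. The ratio of KO3 to KO1 was 1.23, with an interval of 1.18 to 1.27. Without KO1 the log2 fold change was -0.02. Without KO3 it was -0.32 and passed, with an adjusted p of 1.09e-19 from a spread that came from the CTL pair alone.

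F3, encoding tissue factor, had few reads and did not pass. It had 28 reads in KO1 and 45 in KO3, against 60 in CTL1 and 74 in CTL2. Its level was 2.06 ± 0.663 CPM in P1KO and 3.78 ± 0.513 CPM in CTL (SD, n = 2 each). Both P1KO values were below both CTL values, by 26.0% between the nearest libraries. The measured log2 fold change was -0.87 ± 0.30 (SE), at an adjusted p of 0.0876 and an unadjusted p of 0.0227 in edgeR. The 95% interval of the fold change ran from 0.333 to 0.894, not adjusted for the number of genes. With DESeq2 the adjusted p was 0.210. From the summed reads the P1KO level was 0.545 of the CTL level, between 0.404 and 0.730 by counting error (95%, exact binomial). Within each genotype the difference between libraries was inside counting error, with an interval of 0.970 to 2.65 for KO3 over KO1 and of 0.851 to 1.73 for CTL2 over CTL1. Without KO1 the log2 fold change was -0.58 and without KO3 it was -1.25, in fits whose spread came from the CTL pair alone.

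**Figure D2:**
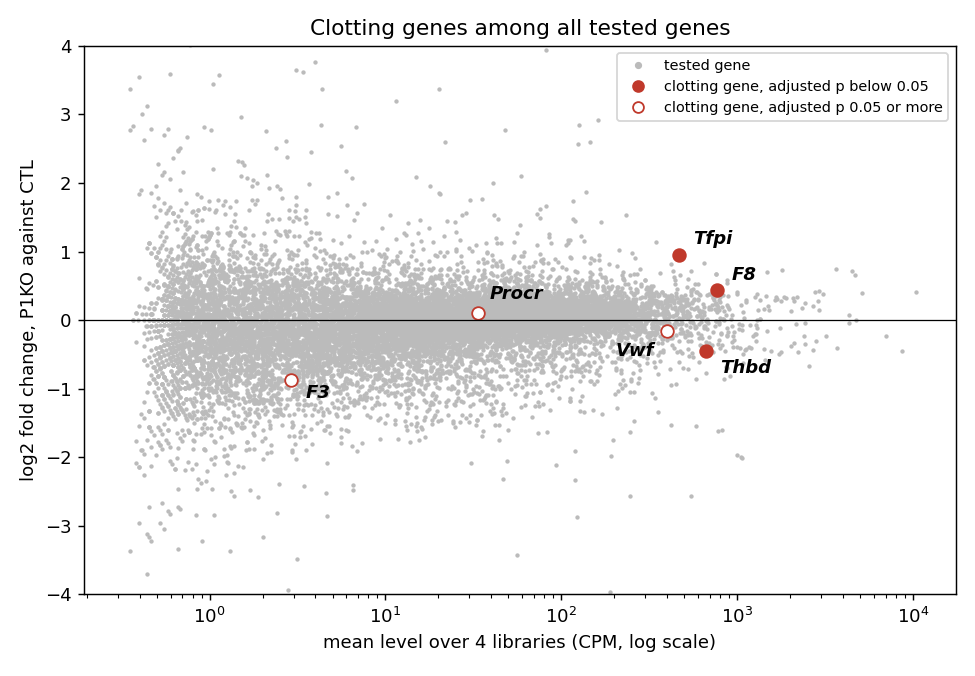
Log2 fold change of P1KO against CTL (vertical axis) against the mean level over the 4 libraries in CPM (horizontal, log scale) for all 15510 tested genes, with the 6 clotting genes marked and filled where the adjusted p was below 0.05. 21 genes beyond 4 in absolute log2 fold change are not drawn. Tfpi lies at the upper edge of genes of its level, whereas Vwf and Procr lie inside the main cloud.

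The plot of all tested genes places the members among genes of like level. For Thbd, 85.6% of 409 genes within 2-fold of its mean level changed less in absolute size. The shares were 83.8% of 345 genes for F8 and 84.2% of 2736 genes for F3. For Vwf and Procr they were 41.5% of 840 genes and 35.9% of 4680 genes, so that most comparable genes changed more than these 2. All 6 genes had groups that did not overlap in TMM-scaled CPM, which was also true of 62.6% of all tested genes, and Vwf owed this to a difference below counting error.

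**Figure D3:**
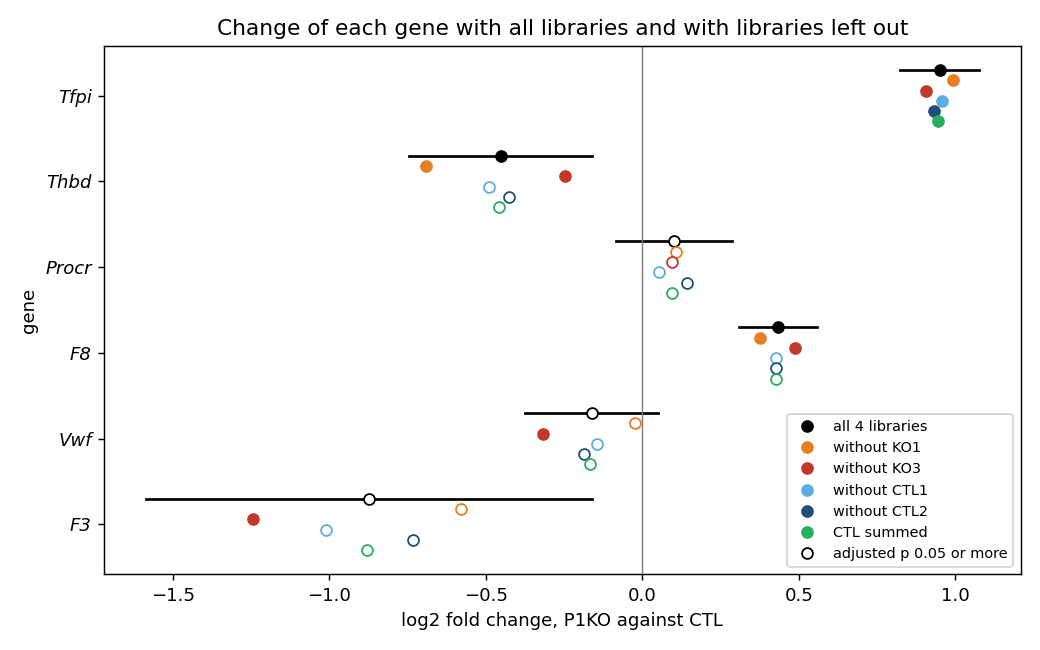
Log2 fold change of P1KO against CTL for each gene (horizontal axis) with all 4 libraries, with each library left out in turn and with the CTL libraries summed. Filled points had an adjusted p below 0.05, open points did not, and black lines are 95% intervals of the fit to all libraries. Tfpi is filled in every fit, between 0.91 and 0.99, while F8 is filled only in fits that keep both CTL libraries apart.

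The 2 P1KO libraries did not deviate from CTL alike in every gene. Thbd was lower in KO3 than in KO1, and Vwf and F3 were lower in KO1 than in KO3, although for F3 this was within counting error. F8 was higher in KO1 than in KO3, and Tfpi was higher in KO3. The plot of changes with libraries left out shows this as the distance between the fits without KO1 and without KO3, which on the log2 scale was 0.67 for F3, 0.44 for Thbd, 0.29 for Vwf, 0.11 for F8, 0.09 for Tfpi and 0.01 for Procr.

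Ratios between gene pairs within a library do not depend on how libraries are scaled, and 6 were computed. They are ratios of reads and not of transcripts, since no transcript lengths were used, so only their change between genotypes can be read. In F3 to Tfpi, F8 to Vwf, Thbd to Procr and Tfpi to Thbd, the 2 genes went opposite ways in TMM-scaled CPM without overlap. Their ratios therefore had to separate the genotypes, and these differences restate the changes of the single genes. For F3 to Tfpi, the initiator and its inhibitor, the F3 reads amounted to 0.267% and 0.400% of the Tfpi reads in KO1 and KO3, against 1.06% and 1.32% in CTL1 and CTL2. The log2 ratio was -8.26 ± 0.41 in P1KO and -6.40 ± 0.22 in CTL (SD, n = 2 each), a difference of -1.86, or 3.62-fold lower in P1KO. Every P1KO library was below every CTL library, as the levels of the single genes already required. The difference ran from -2.15 without KO3 to -1.57 without KO1. The F3 reads set its precision.

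For F8 to Vwf, the factor and its carrier, the ratio of reads was 2.71 and 2.05 in KO1 and KO3, against 1.53 and 1.58 in CTL1 and CTL2. The difference in log2 ratio was 0.60, or 1.52-fold higher in P1KO, and it was 0.40 without KO1. For Thbd to Procr, which act on the same protein C, the ratio was 18.6 and 13.5 in KO1 and KO3, against 23.8 and 23.4 in CTL1 and CTL2. The difference in log2 ratio was -0.57, and it was -0.34 without KO3. In both pairs the genotypes did not overlap, as the levels of the single genes already required, and the P1KO libraries differed more than the CTL libraries.

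The other 3 ratios were chosen after the values had been seen. For Tfpi to Thbd, the ratio of reads was 0.919 and 1.33 in KO1 and KO3, against 0.427 and 0.401 in CTL1 and CTL2, a difference in log2 ratio of 1.42, or 2.67-fold higher in P1KO. Thbd reads outnumbered Tfpi reads in KO1 and in both CTL libraries, and Tfpi reads outnumbered Thbd reads in KO3. That order of reads does not rank the transcripts of the 2 genes, since no transcript lengths were used. For F8 to Tfpi the ratio was 1.54 and 1.34 in KO1 and KO3, against 2.03 and 2.07 in CTL1 and CTL2, a lower ratio in both P1KO libraries than in either CTL library. For Vwf to Thbd the genotypes overlapped, at 0.520 and 0.867 in KO1 and KO3, against 0.566 and 0.526 in CTL1 and CTL2. The two-sided exact permutation test gave p = 0.333 for every ratio except Vwf to Thbd, at p = 1. With 2 libraries against 2, 0.333 is the smallest p possible, and adjusted over the 6 ratios the values were 0.4 and 1.

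**Figure D4:**
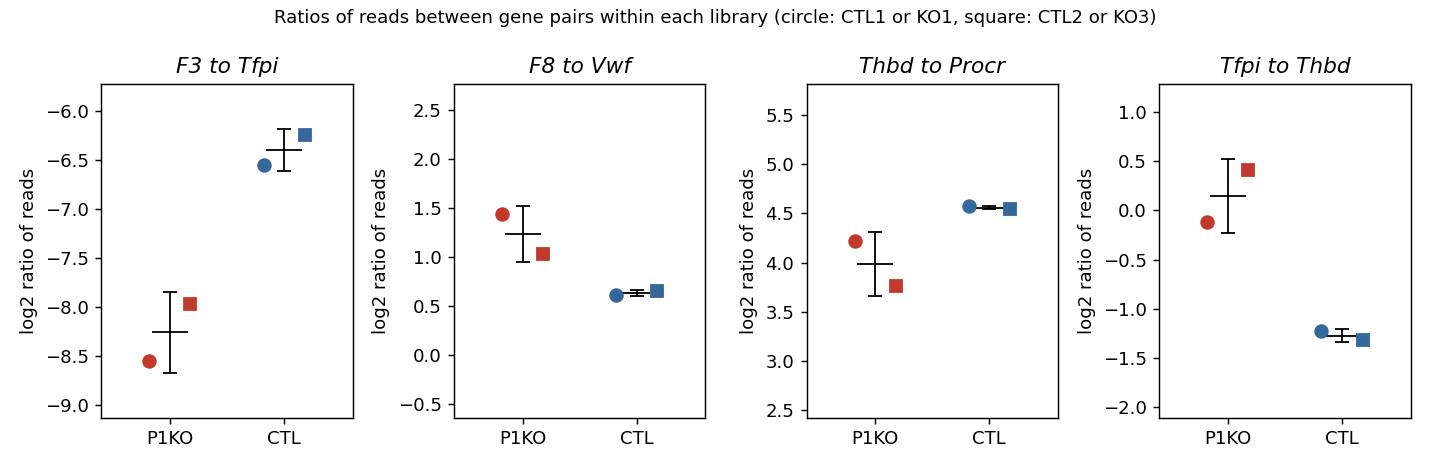
Log2 ratio of reads between 2 genes within each library, for 4 pairs, with axes of equal height in log2 units. Points are libraries and bars are the mean and SD of 2 libraries. F3 to Tfpi averaged -8.26 in P1KO and -6.40 in CTL, and Tfpi to Thbd averaged 0.14 in P1KO and -1.27 in CTL. The pair Tfpi to Thbd was chosen after the values had been seen, and F8 to Tfpi and Vwf to Thbd are not drawn.

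For the called members with the largest rise and the largest fall, Tfpi and Thbd, the genes with the most similar profile were sought by the distance of their log2 CPM over the 4 libraries, each centred on its mean, among genes within 2-fold of the member's level. F8, the other called member, was not searched. For Tfpi the nearest of 688 genes were ENSMUSG00000015243, at a distance of 0.0263 and with a log2 fold change of 0.98, and ENSMUSG00000027199, at 0.152 and 0.90. For Thbd the nearest of 409 genes were ENSMUSG00000060591, at 0.0910 and a log2 fold change of -0.49, and ENSMUSG00000038007, at 0.0968 and -0.39. With 4 libraries such likeness describes these libraries only.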

How the data were processed

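The authors deposited 1 table of raw read counts per gene for the whole series, and all 4 of its columns were used. Per the submitters' processing notes, the build was mm10, and featureCounts 1.5.0-p3, HISAT2 2.0.5, fastp and CASAVA were among the tools. Which annotation release, strand setting and handling of shared reads were used is not given in the sources used here. Column KO3 was placed in P1KO without a sample number, since no title carries that number. Symbols of the 6 members came paired with their identifiers. The reference table (GRCm38.p6, 49997 genes) holds no Ensembl identifiers, so 0 of 54532 were matched, and the 76 symbols of the pathway and marker lists are not analysed here.

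Counts were tested with edgeR 4.0.16 in R 4.3.3 (filterByExpr, TMM, quasi-likelihood F-test, no covariate, Benjamini-Hochberg over 15510 genes, adjusted p below 0.05). The script was also run on simulated counts with the same spread in both genotypes, unlike the unequal spreads of these libraries. Of 50 genes changed 1.5-fold, the smallest change simulated, 32 were recovered, and 10 of all 173 calls were unchanged genes. SE is the log2 fold change divided by the square root of F. Likeness was computed from log2 CPM (prior count 2). Alternatives were DESeq2 1.42.0 or its size factors, library totals, limma-voom (limma 3.58.1) with a common or separate spread, other filters, each library left out (same 15510 genes), and CTL summed. By the naming rule all 6 members are described. The members and lists were chosen with earlier results of these data known. Binomial intervals (95%) cover counting error only, and reads without molecular identifiers are not independent molecules.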

Additional observations from a re-analysis of the deposited data

How the results depend on the processing

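Over all genes 3027 passed, against 1633 with no filter on low counts, 152 with the CTL libraries summed and 120 to 5391 with a library left out. The Tfpi rise passed in all 12 alternatives, with a log2 fold change of 0.91 to 0.99 over the libraries left out. F8 missed the threshold with CTL summed (0.43) and without either CTL library, and ranged from 0.38 to 0.49 over the libraries left out. Thbd missed it with DESeq2 (-0.45), with no filter (-0.46), with CTL summed (-0.46) and without either CTL library, and ranged from -0.69 to -0.25. Vwf (-0.32 to -0.023) and F3 (-1.25 to -0.58) passed only without KO3. A filter of at least 5 CPM removed F3. Procr passed in none. No member changed sign in any alternative that tested it. Where 1 library of a group remained, its spread was assumed equal to the other group's. The cause of these differences was not tested. No paired analysis was possible because no label says that a number marks a shared litter, batch or day, and column KO3 carries a number that no sample title has. With 28 to 74 reads per library, F3 had the widest counting interval of the 6 genes.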
